A study of Papio anubis with 34 samples.

Results

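The 13 protein genes of the mitochondrial genome took between 5.07% and 13.3% of all counts in 33 libraries made from prefrontal cortex, each of a female olive baboon (Papio anubis). Described here are the 8 libraries of highest and the 8 of lowest share, 16 of the 34 libraries of the series. The share was the summed estimated count of ND1, ND2, ND3, ND4, ND4L, ND5, ND6, CYTB, COX1, COX2, COX3, ATP6 and ATP8 divided by the library's total count. The libraries were chosen by the measured level of these 13 genes, so those levels are given as a description, with no test, and the comparison was made over nuclear genes, with levels in counts-per-million (CPM) recomputed without the 13. One further library, younger replicate 8, was left out by the rule: its ALB level (albumin, made by liver) was 61973 CPM, against 20.4 CPM at most in the other 33.

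Each library came from its own animal, fed normal monkey chow, with no treatment, and age was the only labelled variable, from 7.45 to 22.12 years. Libraries are named here by an age band (younger, middle or older) and a number that follows the order of deposit and pairs nothing. The high-share group held 3 younger, 3 middle and 2 older animals, aged 7.45 to 20.91 years (mean 13.9 ± 4.92, SD, n = 8). The low-share group held 0 younger, 3 middle and 5 older animals, aged 13.61 to 22.12 years (mean 18.4 ± 2.73, SD, n = 8). RNA was total RNA from snap-frozen tissue, and ribosomal RNA was removed before stranded libraries were made, per the labels' protocols.

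Mitochondria carry a small circular genome whose 13 proteins are all subunits of the respiratory chain complexes I, III and IV or of the ATP synthase, complex V. All other subunits, and the enzymes that copy, transcribe and translate mitochondrial DNA, are encoded in the nucleus. The genome is transcribed as long precursors that are cut at transfer RNAs, so that most of these RNAs derive from a shared primary transcript and differ in steady-state level through processing and decay. In cortex, neurons and their synapses are the main users of respiratory ATP.

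The low-share libraries ranged from 5.07% to 5.97% (mean 5.50 ± 0.421, SD, n = 8) and the high-share libraries from 8.34% to 13.3% (mean 10.4 ± 1.81, SD, n = 8). Just inside and outside the lower limit were older replicate 10 at 5.97% and older replicate 8 at 5.98%. Just inside and outside the upper limit were middle replicate 10 at 8.34% and younger replicate 11 at 7.94%. The limits therefore cut a continuous range, and 4 libraries stood apart from it, with 11.1% in older replicate 11, 11.6% in older replicate 3, 11.7% in middle replicate 5 and 13.3% in younger replicate 12.

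**Figure D1:**
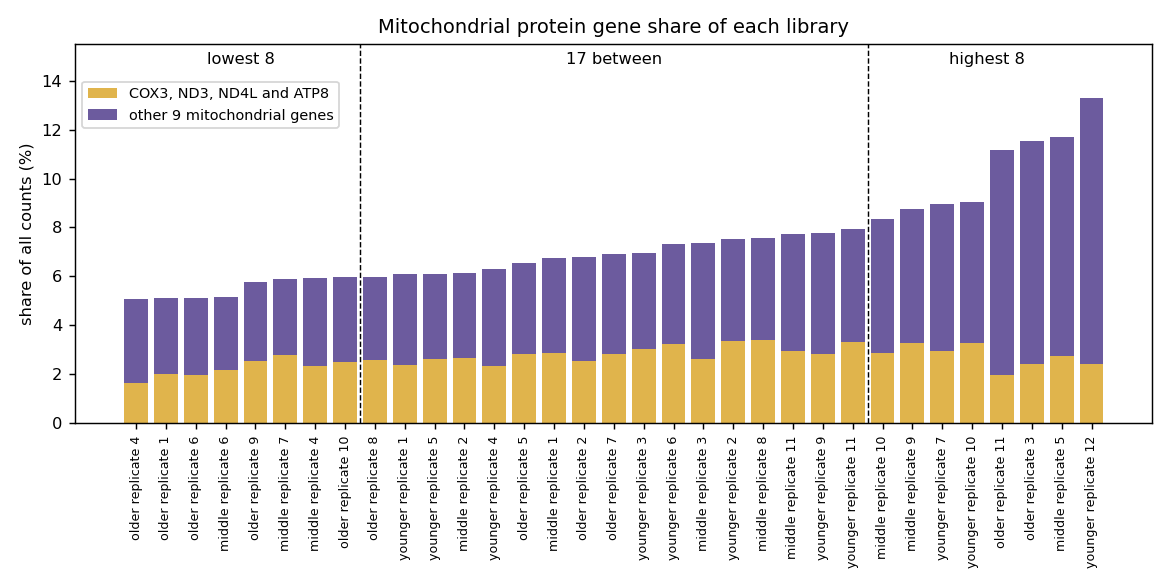
Share of all counts (%, y axis) held by the 13 mitochondrial protein genes in 33 libraries ordered by share (x axis), with each bar split into COX3, ND3, ND4L and ATP8 (lower part) and the other 9 genes (upper part); dashed lines mark the limits of the 8 lowest and 8 highest libraries. The lower part spans 1.64% to 2.81% in the lowest 8 and 1.97% to 3.27% in the highest 8, while the upper part goes from a mean of 3.25% to 7.61%.

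The 13 genes did not move by one factor. Levels of the 13 genes are in CPM relative to the library's nuclear counts, folds are ratios of group means, and the largest were at 3 subunits of complex I, which passes electrons from NADH into the chain. ND2 had a median of 7.999 CPM (4.81 to 10.7) in the low-share libraries and 1187 (387 to 7371) in the high-share libraries, a ratio of 284. ND1 had a median of 290 (228 to 356) against 1931 (446 to 7742), a ratio of 9.52. ND4 had a median of 2640 (2364 to 3207) against 12571 (3915 to 20809), a ratio of 4.38. For each of these 3 genes every high-share library lay above every low-share library.

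Of the marker genes of the rule, COX1, the catalytic core of complex IV, which reduces oxygen, had a median of 10739 CPM (9281 to 12512) in the low-share and 26630 (18092 to 37559) in the high-share libraries. CYTB, the mitochondrial subunit of complex III, had a median of 7000 (6341 to 8218) against 13796 (8774 to 20110). Their ratios of means were 2.46 and 1.99, and neither overlapped between the groups. COX2 (ratio 1.83), ND5 (1.98) and ATP6, the proton channel subunit of complex V (2.41), did not overlap either.

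The other 5 genes overlapped between the groups. COX3, the gene with the highest level per kilobase in the low-share libraries, had a median of 19504 CPM (14235 to 24796) there and 25503 (16787 to 29555) in the high-share libraries, a ratio of means of 1.27. ND3 (ratio 1.29), ND4L (1.32) and ATP8 (1.45) were likewise within 1.5 times. ND6, the 1 of the 13 on the opposite strand, had a median of 19.99 CPM (9.56 to 31.2) against 30.7 (16.6 to 288). Its ratio of means of 4.32 came from older replicate 11 and younger replicate 12, at 288 and 254, with the other 6 high-share libraries between 16.6 and 33.7.

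In CPM per kilobase of gene, COX3 (24803 ± 4447) led in the low-share libraries, followed by ATP8 (8045 ± 1362), ATP6 (6901 ± 1623), COX2 (6856 ± 1403), COX1 (6802 ± 689) and CYTB (6259 ± 640; SD, n = 8 for each). The ranges of mean ± SD of the last 5 of these overlapped. All were measured in the same 8 libraries, and the genes were not compared within each library. ND1 (305 ± 43.8), ND6 (38.6 ± 12.8) and ND2 (7.81 ± 1.72) were at the bottom. In the high-share libraries COX3 stood at 31404 ± 5447, COX1 at 16721 ± 4359 and ATP6 at 16644 ± 2774, and ND2 had reached 2218 ± 2530. COX3 went from 32.9 ± 3.78% of the counts of the 13 genes in the low-share libraries to 22.1 ± 7.08% in the high-share libraries, and ND4 from 4.66 ± 0.697% to 9.48 ± 4.44%.

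**Figure D2:**
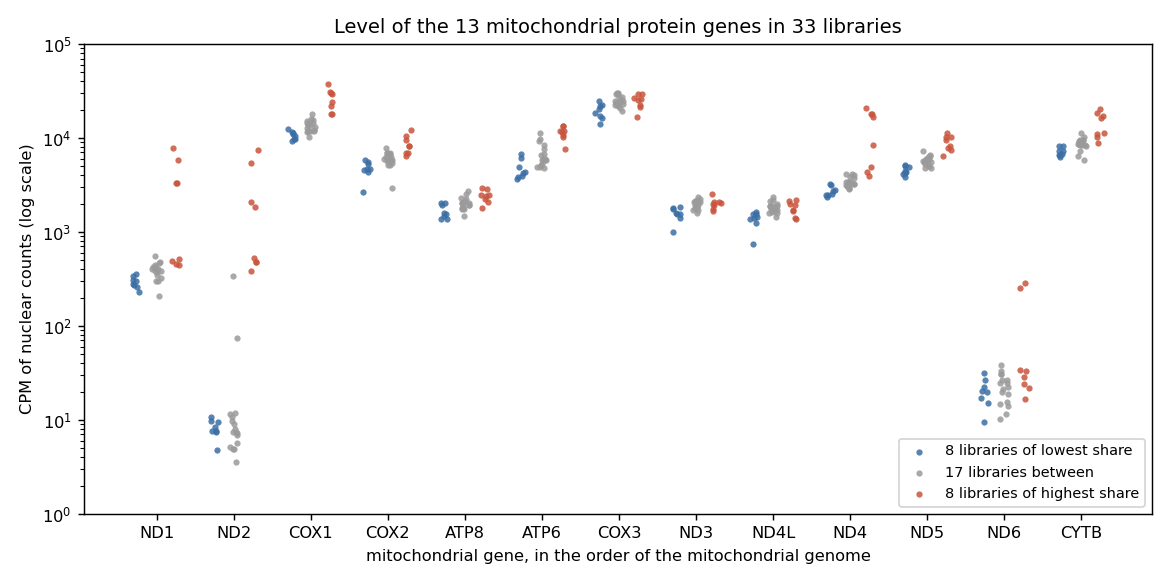
Level in CPM of nuclear counts (y axis, log scale) of the 13 mitochondrial protein genes (x axis) in the 8 lowest-share, 17 between and 8 highest-share libraries, 1 point a library. ND2 lies between 4.81 and 10.7 in the lowest 8 and between 387 and 7371 in the highest 8, while COX3 overlaps across all groups.

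ND2 took 3 separate ranges over the 33 libraries: 3.55 to 11.7 CPM in 23 libraries, 74.5 to 525 in 6 and 1849 to 7371 in 4. The 4 at the top were the 4 libraries of highest share: older replicate 3 (1849), middle replicate 5 (2076), older replicate 11 (5431) and younger replicate 12 (7371). They also held the 4 highest levels of ND1 (3343 to 7742) and ND4 (16783 to 20809). The other 4 high-share libraries had ND1 between 446 and 518 and ND4 between 3915 and 8358.

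Without the 4 libraries of high ND2, the high-share group was closer to an even shift. Its other 4 libraries lay above every low-share library at 12 of the 13 genes, ND6 being the exception, with ratios of means to the low-share group from 1.33 (ND6) to 2.36 (ATP6) apart from ND2 (57.2). The 4 libraries of high ND2 lay above every low-share library at 8 of the 13 genes. At ND4L they ran from 1373 to 1701 CPM, below the 1940 to 2190 of the other 4 high-share libraries, and at COX3 from 16787 to 25757 against 25249 to 29555.

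One nuclear row was low in the same 4 libraries and another in 2 of them. LOC110743349, listed as an uncharacterized protein-coding gene, was at 10402 to 20565 CPM in the other 29 libraries, at 5631 in older replicate 3, 5377 in middle replicate 5, 61.2 in younger replicate 12 and 19.8 in older replicate 11. Among 6132 nuclear genes at 20 CPM or more in every one of those 29 libraries, it was the 1 gene lower in all 4 than in each of the 29, and 0 were higher in all 4; its name was chosen after its values were seen. LOC110742222, a transcribed pseudogene that the file annotates as similar to NADH-ubiquinone oxidoreductase chain 1, was at 4439 in older replicate 11 and 5240 in younger replicate 12 against 14327 to 25926 in the 29, with 14498 and 16868 in older replicate 3 and middle replicate 5. LOC110742222 was likewise chosen after its values were seen. No sequence of either row was compared with mitochondrial DNA. How any reads that match both the mitochondrial genome and a nuclear row were assigned was not given in the sources used here. The part of such reads in the result was not tested.

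**Figure D3:**
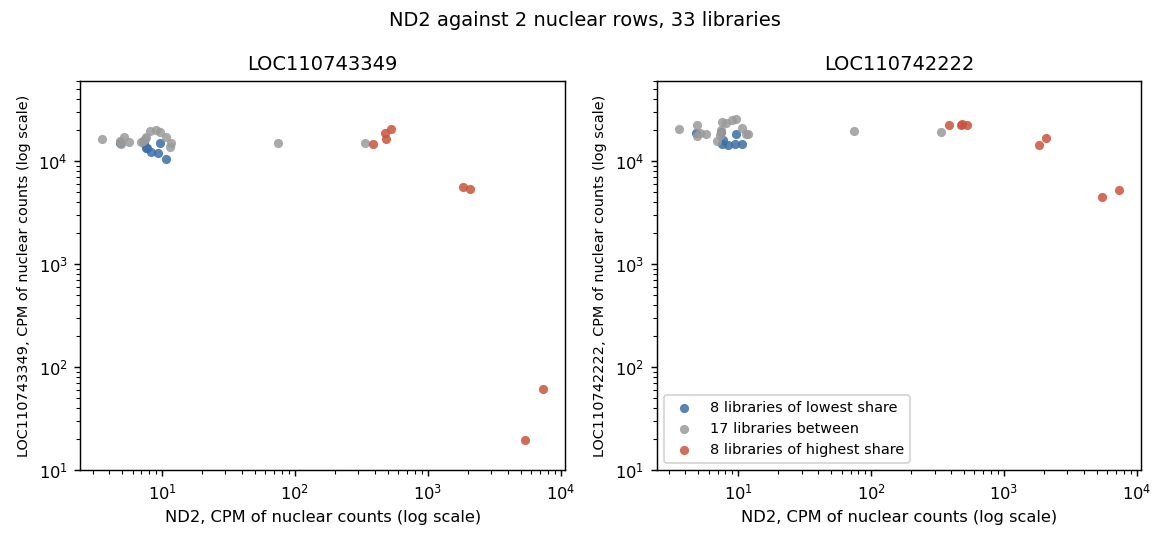
Level in CPM of nuclear counts (both axes log scale) of the nuclear rows LOC110743349 (left) and LOC110742222 (right) on the y axis against mitochondrial ND2 on the x axis, 1 point a library of 33. The 4 libraries of highest ND2 lie below the other 29 for LOC110743349, and 2 of them, at 19.8 and 61.2, are far below.

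With both nuclear rows added, shares were 7.43% to 9.11% in the low-share and 11.5% to 13.8% in the high-share libraries. By that sum, 8 of the 8 low-share and 7 of the 8 high-share libraries stayed in their group. The sum holds the 13 genes that formed the groups, so this separation was largely built in and is no check of them. Younger replicate 11, from between the groups, had 12.1%, above older replicate 11 at 11.5%. By the summed share of COX3, ND3, ND4L and ATP8 the groups overlapped, at 2.25 ± 0.379% (1.64 to 2.81) against 2.74 ± 0.454% (1.97 to 3.27; SD, n = 8 each). Ranked by these 4 genes, 5 of the 8 low-share libraries were among the 8 lowest, but 3 of the 8 high-share libraries were among the 8 highest, 4 were between and 1, older replicate 11, was among the 8 lowest.

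Library measures other than the share were compared with exact permutation tests, two-sided, over the 12870 splits of 16 libraries into 8 and 8. Benjamini-Hochberg adjustment was over these 4 measures. Nuclear counts and the ribosomal and transfer RNA rows are part of the total that divides the share, so they are not independent of the rule. The animals of high share were younger by 4.41 years on average (exact permutation p = 0.0458, adjusted p = 0.183), and their ages overlapped those of low share. Mitochondrial ribosomal and transfer RNA rows held 1.02 ± 0.2205% of counts in the high-share and 0.863 ± 0.258% in the low-share libraries (exact permutation p = 0.209, adjusted p = 0.209). Nuclear counts ran from 2432799 to 24931752 in the high-share and from 4957848 to 14716295 in the low-share libraries, with means of 22.36 and 22.93 on the log2 scale (exact permutation p = 0.182, adjusted p = 0.209). Genes with 10 or more counts numbered 15366 ± 1857 and 16383 ± 784 (exact permutation p = 0.178, adjusted p = 0.209; SD, n = 8 each). None of the 4 passed after adjustment.

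Across 15769 nuclear genes, edgeR's quasi-likelihood test with Benjamini-Hochberg adjustment called 0 genes (0%) higher and 0 genes (0%) lower in the high-share libraries at an adjusted p under 0.05, and the smallest adjusted p was 0.212. At an unadjusted p under 0.05, 726 genes (4.60%) were higher and 1081 (6.86%) lower, and these shares are the background for the lists below. The balance of the directions turned with limma, to 893 higher and 801 lower with limma-voom and 1040 higher and 761 lower on the normalized signal. With DESeq2 10 genes were called higher and 18 lower at an adjusted p under 0.05. Of the genes described below, 14 were among these calls, such as EFNA1 (DESeq2 adjusted p = 0.00359), ITGA9 (0.0211) and GRIN2B (0.0296). The members of each list are described from here by their log2 differences, high minus low share, with standard errors from edgeR, and by how many had an unadjusted p under 0.05. No gene described below passed edgeR's adjusted threshold.

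The genes of smallest p in each direction were read individually. EFNA1, an ephrin ligand, was at a median of 14.5 CPM (7.93 to 17.01) in the low-share and 6.56 CPM (5.69 to 8.93) in the high-share libraries, a log2 difference of -0.97 ± 0.17 (SE; edgeR unadjusted p = 1.34e-05, adjusted p = 0.212). GFRA1, a co-receptor for GDNF, was at 64.9 (43.6 to 103) against 41.4 CPM (30.7 to 59.5; log2 difference -0.79 ± 0.17). The ranges of both genes overlapped between the groups. PLIN3, a lipid droplet protein (-1.71 ± 0.39), MINDY1, a deubiquitinase (-0.90 ± 0.21), and FAM177A1 (-0.58 ± 0.13) were the next of the lower genes, with LAP3.

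Only 4 genes (0.0254%) had every high-share library below every low-share library, and 0 (0%) the reverse. LAP3, a cytosolic aminopeptidase, had 30.1 to 67.9 CPM in the low-share and 23.7 to 27.3 CPM in the high-share libraries (log2 difference -0.70 ± 0.15). HAVCR2, an immune receptor found on microglia, had 7.14 to 27.3 against 4.02 to 6.93 CPM (-1.001 ± 0.258). BAZ1B, a chromatin remodelling subunit, had 136 to 158 against 111 to 134 CPM (-0.20 ± 0.07), and NCK1, a signalling adaptor, 9.89 to 13.8 against 6.42 to 9.55 CPM (-0.44 ± 0.12). HAVCR2, BAZ1B and NCK1 were chosen after their values were seen.

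On the higher side, ITGA9, an integrin subunit, had a median of 21.3 CPM (9.58 to 28.7) in the low-share and 33.8 CPM (27.8 to 42.0) in the high-share libraries (log2 difference 0.78 ± 0.17; edgeR unadjusted p = 0.000187, adjusted p = 0.259). GRIN2B, a subunit of the NMDA receptor, had 658 (584 to 878) against 948 CPM (806 to 1133; 0.45 ± 0.10). SYNPO, an actin-binding protein of dendritic spines, had 144 (134 to 201) against 211 CPM (162 to 283; 0.49 ± 0.11). WNT7B, a secreted WNT ligand (1.20 ± 0.27), CARD16 (1.64 ± 0.37) and NWD2 (0.71 ± 0.16) followed. All 6 overlapped between the groups, and CARD16 had low levels, 1.63 to 6.04 CPM in the high-share libraries.

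The 17 libraries between the groups did not enter that fit, and a slope of each nuclear gene on the log2 share was fitted in them with edgeR. Their shares ran from 5.98% to 7.94%, a range of 0.409 on the log2 scale. Of 15345 genes, 0 (0%) had a slope above 0 and 0 (0%) one below 0 at an adjusted p under 0.05 (smallest adjusted p 0.295), while 551 (3.59%) and 497 (3.24%) did at an unadjusted p under 0.05. Of 707 genes higher in the high-share libraries at an unadjusted p under 0.05 and also fitted here, 516 (73.0%) had a positive slope, against 48.3% of all 15256 genes in both fits. Of 1056 lower genes, 900 (85.2%) had a negative slope, against 51.7% of all. Genes can vary together across libraries, so these shares do not count independent repeats. EFNA1 had a slope of -2.21 ± 0.82 and SYNPO of 0.94 ± 0.38 (log2 change per doubling of the share, SE), while GRIN2B had 0.04 ± 0.34 and ITGA9 0.56 ± 0.89.

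Nuclear-encoded subunits of complex I, the partners of the ND proteins, had log2 differences from -0.26 to 0.41. Of 37 complex I subunits tested, 3 were higher and 0 lower at an unadjusted p under 0.05, with a median log2 difference of 0.11 against -0.01 over all genes. NDUFB10, an accessory subunit of the membrane arm, had a median of 32.7 CPM (30.7 to 39.3) in the low-share and 39.7 CPM (36.9 to 43.5) in the high-share libraries (log2 difference 0.28 ± 0.08). NDUFA12 (0.34 ± 0.14) and NDUFA7 (0.25 ± 0.11) were the others. In the 17 libraries between, 30 of the 37 slopes were positive, 7 of them at an unadjusted p under 0.05, with a median of 0.31 per doubling. With log2 library size as a covariate the median difference of complex I was 0.06.

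Among 18 subunits of complex V, 2 were higher and 0 lower (median 0.11). They were ATP5J2 (0.23 ± 0.09) and ATP5C1, the gamma subunit (0.21 ± 0.09), and 18 of 18 slopes were positive in the 17 libraries between (median 0.49). All 4 subunits of complex II, which has none from the mitochondrial genome, missed the unadjusted threshold, with SDHA at -0.14 ± 0.10. COX5A (0.13 ± 0.10) and COX8A (0.18 ± 0.10) of complex IV missed it too; the other subunits of the 11 listed for that complex were not analysed here. When libraries were ranked by COX3, ND3, ND4L and ATP8 alone, the medians of complexes I and V were 0.22 and 0.24. With age as a covariate the medians of complexes I and V were 0.08 and 0.09, with 1 of 37 and 0 of 18 higher. Without the libraries whose titles carry an R, the median slopes were 0.19 and 0.29. The summed complex I level was 1832 to 2173 CPM in the low-share and 1819 to 2394 CPM in the high-share libraries, and these ranges overlapped. The complex V sums, with medians of 1769 and 1757 CPM, overlapped as well.

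The genes that keep and express mitochondrial DNA showed shares of members near or below the background. For DNA maintenance and transcription, 0 of 26 members were higher and 1 lower, TK2, the mitochondrial thymidine kinase (-0.21 ± 0.09; median of the list -0.05). TFAM, which packages mitochondrial DNA and starts its transcription, had a median of 34.8 CPM (19.6 to 43.5) against 29.2 CPM (22.4 to 43.0; log2 difference -0.15 ± 0.16). POLRMT, the mitochondrial RNA polymerase, had 37.7 (32.5 to 70.3) against 38.7 CPM (35.5 to 46.4; -0.06 ± 0.14). For RNA processing and decay, 0 of 31 were higher and 1 lower, MRM1, a methyltransferase of mitochondrial ribosomal RNA (-0.40 ± 0.16). LRPPRC, which stabilises mitochondrial messenger RNAs, differed by 0.00 ± 0.07.

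Mitochondrial ribosomal proteins gave 0 of 76 higher and 1 lower (MRPS28, -0.35 ± 0.15; list median 0.04). Regulators of biogenesis gave 0 of 20 higher and 1 lower (SIRT1, a deacetylase, -0.30 ± 0.13), and PPARGC1A, the coactivator that drives mitochondrial gene programmes, differed by 0.00 ± 0.14. Protein import gave 2 of 37 higher, DNAJC19 (0.32 ± 0.15) and TIMM29 (0.25 ± 0.12), and 0 lower. Assembly factors gave 0 of 26 in either direction (26 of the 49 listed were matched), and genes of mitochondrial dynamics, transport and mitophagy 0 of 32 higher and 1 lower, MTFR1 (-0.99 ± 0.29).

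Fuel pathways were also close to the background. Of 32 genes of the tricarboxylic acid cycle and pyruvate dehydrogenase, 1 was higher, PDK3, an inhibitory kinase of pyruvate dehydrogenase (0.35 ± 0.11), and 1 lower, PC, pyruvate carboxylase (-0.30 ± 0.14). Of 25 genes of fatty acid oxidation, 0 were higher and 3 lower. Among them were ACSL1, which activates long-chain fatty acids (-0.82 ± 0.21), and CPT2, a carnitine palmitoyltransferase (-0.43 ± 0.17). The slopes of this list in the 17 libraries between went the other way, with 18 of 25 above 0 (median 0.43), 3 of them at an unadjusted p under 0.05, and CPT2 at 0.43 ± 0.66. For glycolysis, 0 of 24 were higher and 1 lower.

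**Figure D4:**
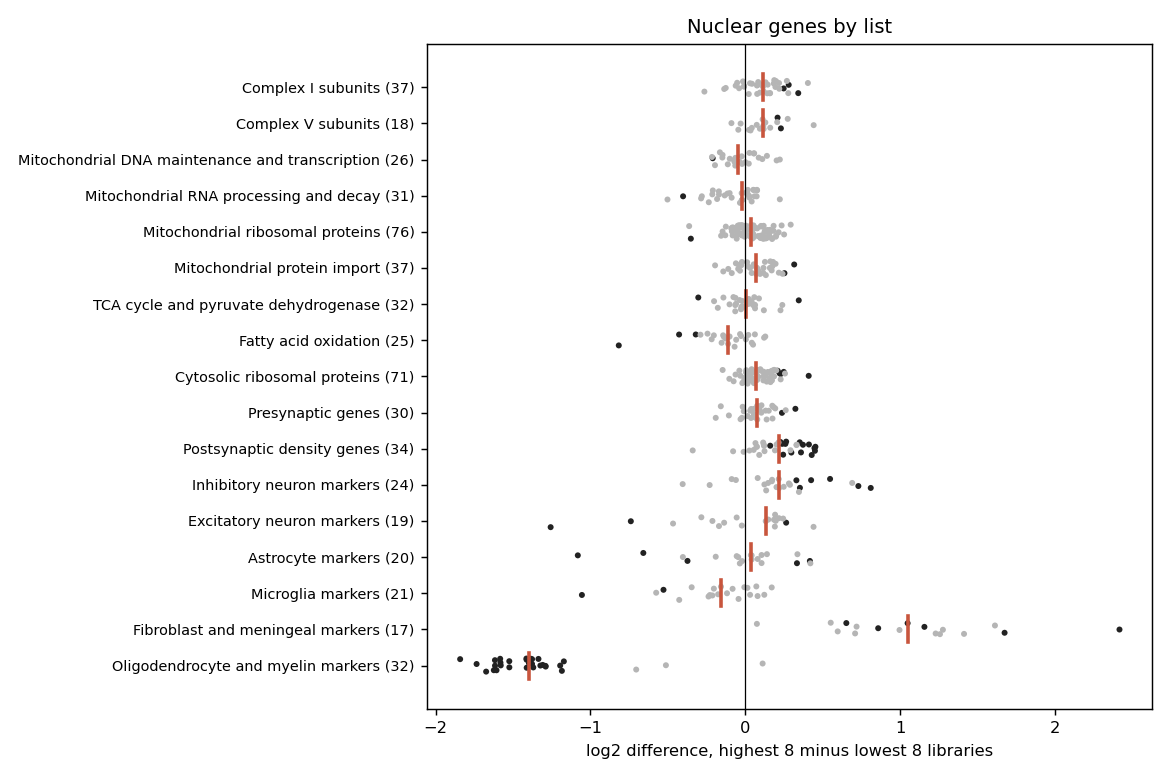
Log2 difference of each tested nuclear gene, highest 8 minus lowest 8 libraries (x axis), by list (y axis, number tested in brackets); dark points have an unadjusted edgeR p under 0.05, grey points do not, and the bar is the list's median. Respiratory chain lists sit near 0 (medians of 0.11), postsynaptic genes at 0.22, and oligodendrocyte genes at -1.40.

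Genes of oligodendrocytes, the cells that make myelin, had the lowest median of the lists drawn. Of 32 tested, 29 were lower and 0 higher at an unadjusted p under 0.05, with a median log2 difference of -1.40. MBP, myelin basic protein, had a median of 4095 CPM (1346 to 10936) in the low-share and 1975 CPM (542 to 3745) in the high-share libraries (-1.34 ± 0.50; edgeR unadjusted p = 0.0172, adjusted p = 0.334). HAPLN2, a link protein at nodes of Ranvier, had 43.9 (11.8 to 89.5) against 12.2 CPM (5.24 to 18.8; -1.84 ± 0.42). Both overlapped between the groups. PLEKHH1 (-1.58 ± 0.42) and CARNS1 (-1.67 ± 0.46) had differences of like size.

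The summed level of these oligodendrocyte genes was 3304 to 25825 CPM (median 9185) in the low-share, 1325 to 25128 CPM in the between and 1146 to 6520 CPM (median 4547) in the high-share libraries. In this bulk tissue, fewer cells of a type and less RNA per cell cannot be told apart. In the 17 libraries between, 31 of the 32 slopes were negative (median -2.95 per doubling of the share), 4 of them at an unadjusted p under 0.05. With age as a covariate the median was -1.30 and 23 of the 29 members stayed lower. Set against the low-share group alone, the 4 high-share libraries of ND2 under 1000 CPM gave a median of -1.80. The 4 of higher ND2 gave one of -1.19. This split by ND2 was made after the values were seen.

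**Figure D5:**
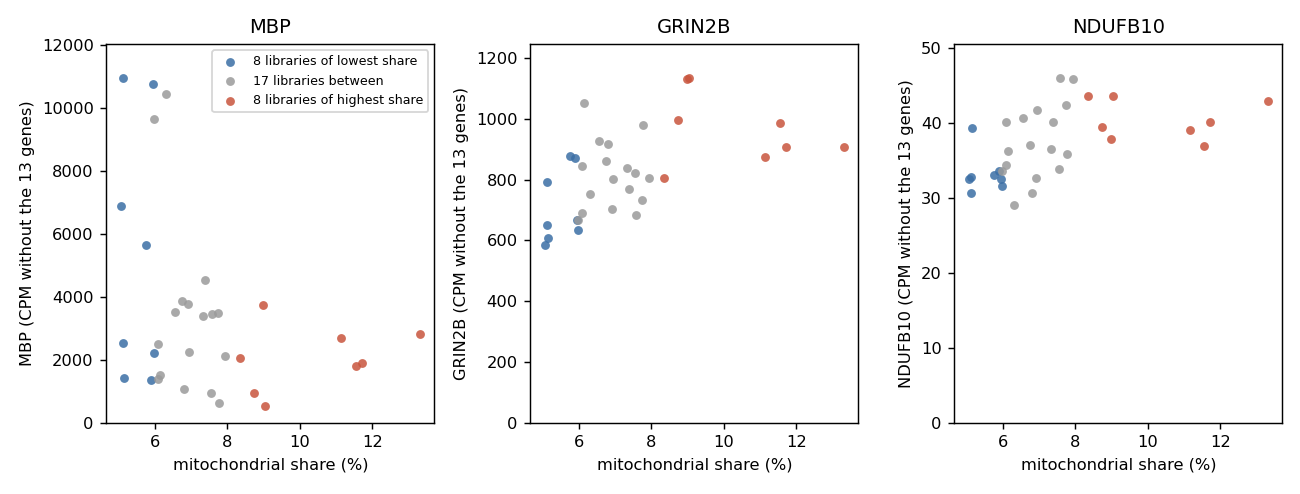
CPM, recomputed without the 13 mitochondrial genes (y axis, from 0), of MBP (left), GRIN2B (middle) and NDUFB10 (right) against the mitochondrial share in % (x axis) in 33 libraries, 1 point a library. The 8 libraries of highest share reach 3745 CPM of MBP, while the lowest 8 span 1346 to 10936, and both other genes overlap between the groups at a narrower range.

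Postsynaptic density genes lay on the other side of 0. Of 34 tested, 15 were higher and 0 lower at an unadjusted p under 0.05, with a median log2 difference of 0.22 and a largest one of 0.45. SHANK2, a scaffold of excitatory synapses, had a median of 152 CPM (108 to 172) in the low-share and 194 CPM (163 to 269) in the high-share libraries (0.45 ± 0.11), and HOMER1, which links glutamate receptors to that scaffold, 239 (197 to 310) against 330 CPM (240 to 422; 0.43 ± 0.12). DLGAP2 differed by 0.37 ± 0.10 and CAMK2A, the calcium-dependent kinase of the density, by 0.26 ± 0.12. With age as a covariate, 6 of the 15 stayed higher (median 0.14), and with the oligodendrocyte covariate the median was 0.12. In the 17 libraries between, the median slope was 0.10, with 22 of 34 positive and 4 positive at an unadjusted p under 0.05.

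Presynaptic genes had a median of 0.08, with 2 of 30 higher and 0 lower. SNAP25, a fusion protein of synaptic vesicles present in all neurons, had a median of 2506 CPM (2001 to 3079) against 2420 CPM (1982 to 3049; -0.01 ± 0.11), and SLC17A7, the vesicular glutamate transporter of excitatory neurons, 630 (414 to 1101) against 714 CPM (588 to 880; 0.19 ± 0.15). Excitatory neuron markers gave 1 of 19 higher and 2 lower. Inhibitory neuron markers gave 6 of 24 higher and 0 lower (median 0.22), of which 0 were higher with age as a covariate (median 0.20), and the median was 0.09 with the oligodendrocyte covariate. GAD1, which makes GABA, differed by 0.29 ± 0.16.

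Astrocyte markers went both ways, with 2 of 20 higher and 3 lower. The glutamate transporters SLC1A3 (0.42 ± 0.12) and SLC1A2 (0.33 ± 0.11) were higher, while GFAP, the filament protein of fibrous and reactive astrocytes, had a median of 1415 CPM (343 to 2853) against 631 CPM (466 to 1175; -1.08 ± 0.38), and S100B differed by -0.66 ± 0.23. AQP4, a water channel of their end feet, differed by -0.40 ± 0.22. Precursors of oligodendrocytes gave 1 of 15 higher and 4 lower, the lower ones including OLIG1 (-0.78 ± 0.25) and OLIG2 (-0.51 ± 0.20), factors that mature oligodendrocytes share, while PDGFRA, a marker of the precursors, differed by 0.08 ± 0.20. The oligodendrocyte covariate was the mean log2 CPM of the list's genes, each first standardized over the 33 libraries. With this covariate GFAP differed by -0.10, S100B by 0.03 and OLIG2 by 0.03.

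Fibroblast and meningeal markers gave 6 of 17 higher and 0 lower, with a median of 1.05. DCN, a matrix proteoglycan of fibroblasts, had a median of 12.7 CPM (7.77 to 49.1) in the low-share and 34.1 CPM (13.9 to 146) in the high-share libraries (1.16 ± 0.52), and SLC47A1, a transporter, differed by 0.65 ± 0.19. The summed list ran from 343 to 998 CPM in the low-share and from 438 to 2777 CPM in the high-share libraries. Without younger replicate 10 the median was 0.52, and with the 4 high-share libraries of higher ND2 alone 0.54. With age as a covariate it was 0.69, with 2 of the 6 still higher, and with the oligodendrocyte covariate 0.0148, which was the value of DCN there. The part of these markers, or of the oligodendrocyte genes, in the differences of other nuclear genes was not tested beyond the covariate fit.

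Markers of the other cells of the tissue were mostly at unadjusted p over 0.05. Microglial markers gave 0 of 21 higher and 2 lower (median -0.16), with CD74 at -1.06 ± 0.44 and CSF1R, a receptor that microglia need to survive, at -0.16 ± 0.25. Endothelial markers gave 1 of 17 higher, KDR, a VEGF receptor (0.86 ± 0.37), and 1 lower, VWF, von Willebrand factor (-0.39 ± 0.17), with CLDN5 of tight junctions at -0.09 ± 0.25. Mural cell markers gave 0 of 11 higher and 1 lower, MCAM, an adhesion molecule (-1.10 ± 0.26), with PDGFRB of pericytes at -0.18 ± 0.18. HBB, beta globin of red blood cells, had a median of 9.26 CPM (2.22 to 18.7) against 17.8 CPM (5.68 to 38.3; 0.91 ± 0.38).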

How the data were processed

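The members and the gene lists were chosen with earlier results of these data known. The authors deposited estimated counts per transcript and a normalized signal; tested on the file, the signal equals the count times 1 constant per library within a relative deviation of 9.34e-06. Per the submitters' processing notes, bcl2fastq, STAR 2.5.3 and Partek were used, with no roles stated, and the genome build was not given in the sources used here. Estimated counts were summed to 35741 genes by GeneID and rounded. The 24 rows naming no gene (mitochondrial ribosomal and transfer RNAs) held 0.435% to 1.48% of counts in the 33 libraries and entered no test. Library totals over all 34 ran from 2500762 to 28495030. The 8 high-share and 8 low-share libraries were compared without the 13 genes by edgeR 4.0.16 in R 4.3.3. Settings were TMM, filterByExpr with a minimum count of 10 and robust quasi-likelihood, with limma 3.58.1 and DESeq2 1.42.0 as alternatives. The pipeline was run on simulated counts in which each gene varied independently, so that run does not cover genes that vary together. CPM is TMM-scaled over 33 libraries. Fits with covariates, other scalings, filters, group sizes, left-out libraries and other shares were the alternatives. The splits by ND2, the share of COX3, ND3, ND4L and ATP8, and the fits that added or left out LOC110742222 and LOC110743349 were added after the values were seen. Named genes were the 13, 6 nuclear genes of smallest p per direction, up to 4 members of smallest p per list, and fixed markers and regulators; others are said to be chosen after their values were seen. Complex III subunits were not analysed here. Some genes that this rule names are not reported here.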

Additional observations from a re-analysis of the deposited data

Results flagged for a closer look

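Each value below stood apart within its group of 8 libraries: its gap to the nearest other library, over the group's range, was above Dixon's 95% critical value. Of 188 groups of 8 examined, 16 (8.51%) held such a value, and chance flags about 1 in 20. Older replicate 3, with 24931752 nuclear counts against 7245821 in the next high-share library, was the deepest of its group and also detected the most genes with 10 or more counts, 19366 against 16015.

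In the low-share group, older replicate 4 held the lowest ND4L level, 746 CPM of nuclear counts against 1245 in the next library, and the highest levels of PC (103 CPM), POLRMT (70.3 CPM) and SLC17A7 (1101 CPM). Older replicate 6 held the highest HAVCR2 (27.3 CPM), ACSL1 (101 CPM) and MTFR1 (21.9 CPM). Middle replicate 7 had the lowest COX2, 2670 CPM of nuclear counts against 4315 in the next library, and middle replicate 6 the highest NDUFB10, 39.3 CPM.

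In the high-share group, younger replicate 10 held the highest DCN, 146 CPM against 67.1 in the next library, and the highest PDGFRB (39.5 CPM) and KDR (41.9 CPM). Older replicate 11 had the highest GFAP, 1175 CPM, and younger replicate 7 the lowest SIRT1, 18.1 CPM.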

How the results depend on the processing

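With edgeR, the counts of genes past the adjusted threshold stayed at 0 in both directions under the other scalings, filters and covariates run, with 6 libraries a side and under limma. They were 10 higher and 18 lower with DESeq2, 1 lower (EFNA1) with 11 libraries a side, and 3 higher (AFF2, CLDN10 and MN1) when libraries were ranked by COX3, ND3, ND4L and ATP8 alone, an alternative added after seeing the data. Leaving out 1 library at a time gave 0 to 0 higher and 0 to 1 lower, EFNA1 without middle replicate 7. At an unadjusted p under 0.05, 1163 genes were higher and 1305 lower without older replicate 4, 279 and 549 with age as a covariate, and 444 and 398 with the oligodendrocyte covariate. With the 4 high-share libraries of ND2 at 1000 CPM or more alone they were 292 and 451, and without a filter on low counts 1200 and 1779. The age difference was -5.58 years with 6 libraries a side (exact permutation p = 0.0519) and -3.14 with 11 (p = 0.103, exact permutation). In 1 high-share, 2 low-share and 2 between libraries the title has an R after the library number, whose meaning the labels do not give. Without these R libraries the age difference was -4.81 years (exact permutation p = 0.0647). Library size (log2) differed by -0.77 with 11 a side (exact permutation p = 0.0360) and by -0.68 without the R libraries (exact permutation p = 0.0233), and genes per library by -1369 (exact permutation p = 0.0353) and -1271 (exact permutation p = 0.0198). Without the R libraries both passed after adjustment over the 4 measures (exact permutation, adjusted p = 0.0466 each). With the oligodendrocyte covariate the sign turned for AQP4 (0.0587), GAD1 (-0.0253), MBP (0.26), OLIG2 (0.0348) and S100B (0.0268), for the oligodendrocyte median slope in the 17 libraries (0.17) and for the postsynaptic one (-0.0336; -0.00806 without the R libraries). Ranking by the 4 genes turned PDGFRB (0.0461) and SDHA (0.0541). A gene within 1 standard error of 0 was given no direction to turn. The oligodendrocyte covariate holds the list's own genes, so the list's value near 0 there follows from its construction; the cause of the other changes was not tested. No paired analysis was possible because replicate numbers follow the order of deposit and pair no animals. Depth limits genes of few CPM most in middle replicate 11 of the 17 between, with 2287150 nuclear counts, and, among the 16 compared, in younger replicate 10, with 2432799.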

Other observations

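Further gene groups were compared between the high-share and low-share libraries. Of 71 cytosolic ribosomal protein genes, 5 were higher and 0 lower at an unadjusted p under 0.05 (edgeR; median log2 difference 0.07), among them RPS24 (0.21 ± 0.07) and RPL39 (0.41 ± 0.15). Of 43 genes of RNA binding and splicing, 0 were higher and 3 lower, and 37 of the 43 differences were below 0 (median -0.08). Of the 71 cytosolic ribosomal differences, 61 were above 0. Over all 15769 genes, 8297 differences were below 0 and 7472 above. Immediate early genes, which neurons switch on with activity, gave 2 of 28 higher, EGR3 (0.49 ± 0.16) and JUN (0.42 ± 0.15), and 0 lower. With age as a covariate 0 were higher, EGR3 differed by 0.14 and JUN by 0.28, and the median of the list went from 0.12 to -0.06. Heat shock and folding genes gave 1 of 27 higher and 3 lower, among them HSPA2 (-1.16 ± 0.32) and CRYAB (-1.36 ± 0.39), a small chaperone abundant in glia, and hypoxia genes 0 of 21 higher and 2 lower, among them NDRG1 (-1.20 ± 0.35). With the oligodendrocyte covariate HSPA2 differed by -0.25, CRYAB by -0.12 and NDRG1 by -0.06.

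In the 17 libraries between, 11 of 20 astrocyte markers had a positive slope on the share at an unadjusted p under 0.05 and 0 a negative one (median 0.86 per doubling of the share), among them SLC1A2 (1.25 ± 0.34) and SLC1A3 (1.09 ± 0.42). Fibroblast markers gave 9 of 17 positive and 0 negative (median 4.01), with a summed level in these libraries from 326 to 2240 CPM (median 560). Endothelial markers gave 6 of 17 positive and 0 negative (median 1.13), and blood cell markers 2 of 2 positive (median 6.89). The 2 blood cell markers tested, of 16 matched, were the globin genes HBA1 and HBB. In these libraries HBA1 had a median of 9.72 CPM and a maximum of 120, and HBB a median of 7.73 and a maximum of 120. These slopes were not refitted with single libraries left out, so the weight of any 1 library in them was not tested. Inhibitory neuron markers gave 4 of 24 positive and 0 negative, and microglial markers 0 of 21 positive and 2 negative. No gene had an adjusted p under 0.05 in this fit, and the shares of all genes at the unadjusted threshold were 3.59% positive and 3.24% negative.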
